A study of Mus musculus with 52 samples.

Results

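The change in liver gene expression between 6 and 12 hours after partial hepatectomy was described from the 4 arrays of mice killed at 12 hours and the 4 arrays of mice killed at 6 hours. The 8 arrays were chosen by the time given in their titles and are 8 of the 52 arrays of the series. The other arrays cover untreated liver (5 arrays) and 10 further times between 1 hour and 3 months, and they enter only where this is said. All mice were male C57Bl6/N, aged 8 to 12 weeks, on a standard diet, and both the 12-hour and the 6-hour group had a partial hepatectomy, in which most of the liver is cut away. No sham-operated group was analysed here, and the hour of the day of the operation is not given, so 6 hours of clock time and 6 hours of time after the operation cannot be told apart. Each array measured total liver RNA on an Affymetrix mouse genome array. The labels do not say that each array comes from its own mouse, so p-values measure only the spread between these samples, which may be technical.

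After partial hepatectomy the remaining hepatocytes leave quiescence, pass a prereplicative phase and then copy their DNA nearly together. The first part of that phase is known for immediate early genes and for signalling by interleukin 6 and its transcription factor Stat3, which also drives the acute phase proteins of plasma. The later part is known for D-type cyclins, growth in ribosome and nucleotide supply, and a fall in some metabolic functions of the liver. The liver also holds a circadian clock, a loop in which Arntl (Bmal1) and Clock drive the Per and Cry repressors through E-box motifs, and which sets the hours at which many metabolic genes are expressed.

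Levels below are log2 values, and changes are log2 differences, 12 hours minus 6 hours, with a standard error after the ± sign. Within the 12-hour group the arrays correlated at 0.942 to 0.975 over the 2000 most variable genes, within the 6-hour group at 0.979 to 0.988, and between the groups at 0.831 to 0.883. The tissue label was matched by its defining gene, albumin (Alb), with levels of 13.85 to 13.95 at 12 hours and 13.94 to 13.98 at 6 hours. The difference between 3' and 5' probes of Gapdh, a measure of RNA integrity, was 0.77 ± 0.09 at 12 hours and 1.03 ± 0.08 at 6 hours (SD, n = 4 each), with no overlap (exact permutation test, two-sided, p = 0.0286, the smallest that 4 against 4 allow, 0.0572 adjusted over 4 measures). The same difference for Actb was 1.46 ± 0.08 at 12 hours and 1.69 ± 0.07 at 6 hours, and the part of either in the results was not tested beyond fits that held the Gapdh difference or the labelling controls as a covariate. Replicate 1 of the 12-hour group stood apart from its 3 fellows: it lay over 2-fold from their mean for 32 of the genes called below, against 3 to 15 for the other 7 arrays. No array pair held identical values.

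Between 6 and 12 hours the liver transcriptome moved widely, with more genes rising than falling. Of 18194 genes, 5168 (28.4%) were called at an adjusted p under 0.05, of which 3450 (19%) rose and 1718 (9.44%) fell. The median change was 0.55 among those that rose, -0.43 among those that fell and -0.015 over all genes, and 701 called genes changed at least 2-fold, 503 of them upward and 198 downward. The 4 arrays of one time did not overlap the 4 of the other for 5385 genes (29.6%), called or not. The split by direction depended on the scaling: 66.8% of the calls were higher with the deposited values, 56.2% after a further quantile normalization and 46.1% after centring each array on its median. When all 52 arrays shared one estimate of spread, 1706 genes (9.38%) were called, 1345 higher (7.39%) and 361 lower (1.98%). Of these, 1703 were also called from the 8 arrays alone. Both fits compare the same group means and differ only in the spread, so the sign of a change could not differ. With the Gapdh difference as a covariate 1107 genes were called, and with the poly-A labelling controls 2113. The poly-A controls lay at 5.99 to 6.15 at 12 hours and 6.15 to 6.27 at 6 hours, and the Gapdh difference did not overlap. Either covariate thus largely followed the time, and these fits cannot tell it apart from time. Of the genes named below, the Gapdh covariate ended 60 calls, 20 of them with a change at least as large as before (median ratio of the changes 0.82, range 0.04 to 1.75). The poly-A covariate ended 34, 10 of them with a change at least as large (median ratio 0.79, range 0.29 to 1.53).

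A large share of the genes that rose did so from a trough that no other time point had. Among the 3450 genes that rose, 1624 (47.1%) had their lowest mean of all 12 groups at 6 hours, and 1027 (29.8%) had their highest mean at 12 hours. Among the 503 that rose at least 2-fold, the trough at 6 hours was found for 72.4% and the peak at 12 hours for 37.8%. The genes that fell were more even, with 36.3% lowest of all groups at 12 hours and 34.7% highest of all groups at 6 hours. Over all genes tested, 10.1% were highest and 9.08% lowest at 12 hours, and 13.8% were lowest and 10.6% highest at 6 hours. These shares describe the group means and carry no test, since the comparison of both times itself favours such extremes.

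**Figure D1:**
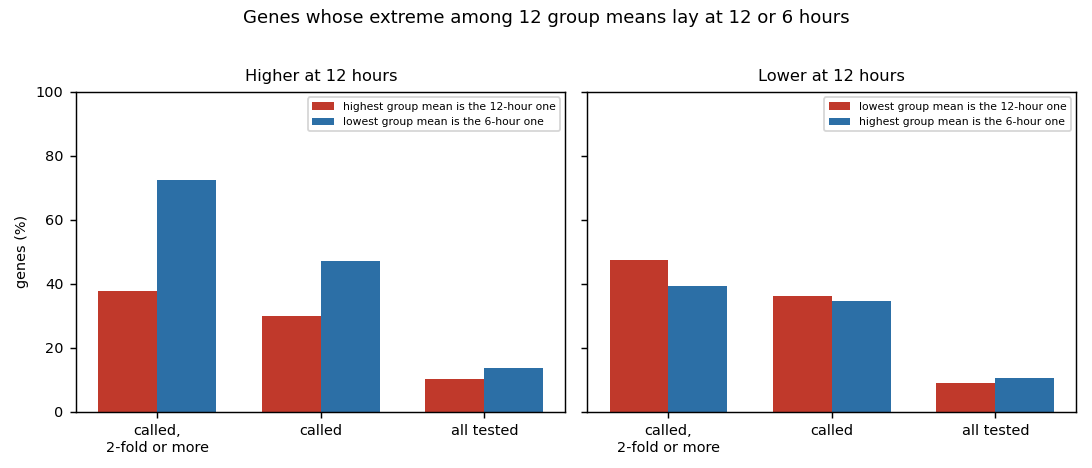
The bars give the percentage of genes whose extreme among the means of 12 groups lay at 12 hours (red) or at 6 hours (blue), for genes called at least 2-fold, all called genes and all genes tested. On the left, 72.4% of genes at least 2-fold higher at 12 hours had their lowest mean at 6 hours, against 37.8% with their highest mean at 12 hours.

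The clearest examples of a trough at 6 hours came from the 15 genes with the highest changes called in both fits. Ttll1, a tubulin glutamylase subunit, had levels of 5.94, 5.92, 6.07 and 5.67 at 12 hours, against 2.81, 2.85, 2.83 and 2.69 at 6 hours (adjusted p = 9.9e-09), at least 3.79-fold higher at 12 hours. Its group mean was 5.42 in untreated liver, 5.48 at 1 hour, 5.48 at 24 hours and 5.32 at 48 hours, so the 6-hour arrays lay below every one of these. Tardbp, which encodes the RNA-binding protein TDP-43, had levels of 8.01, 8.26, 7.86 and 7.4 at 12 hours, against 5.63, 5.14, 5.51 and 5.6 at 6 hours (change 2.41 ± 0.17, adjusted p = 1.6e-06). The 12-hour arrays of both genes lay above all 6-hour arrays, and the Tardbp mean was 6.66 in untreated liver, 6.33 at 1 hour, 7.33 at 24 hours and 7.92 at 48 hours. Pxylp1, a phosphatase of glycosaminoglycan synthesis, rose by at least 4.43-fold, and Pigl, an enzyme of GPI anchor synthesis, by at least 5.77-fold. These "at least" folds set a 6-hour mean under 3.98, the median of all probe sets on the 8 arrays, to that value. Ddo, which oxidizes D-aspartate, was 4.65-fold higher at 12 hours and Nmrk1, a nicotinamide riboside kinase, 6.11-fold higher.

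Other genes at the top of this order had no trough at 6 hours. Afp, the fetal plasma protein alpha-fetoprotein, had levels of 6.65, 6.09, 5.73 and 5.51 at 12 hours, against 3.5, 3.43, 4.27 and 2.71 at 6 hours, at least 4.06-fold higher at 12 hours, and its mean was 3.18 in untreated liver, 4.05 at 1 hour, 7.0 at 24 hours and 7.01 at 48 hours. Plpp5, a lipid phosphatase, had levels of 9.3, 9.28, 9.21 and 8.88 at 12 hours, against 6.58, 6.76, 6.54 and 7.07 at 6 hours (change 2.43 ± 0.13). Acnat2, an acyl-CoA:amino acid acyltransferase, had levels of 8.83, 8.89, 9.15 and 8.52 at 12 hours, against 6.96, 6.34, 6.32 and 5.65 at 6 hours (change 2.53 ± 0.22), against 5.64 in untreated liver, 8.72 at 24 hours and 8.86 at 48 hours. All 3 genes were higher in every 12-hour array than in any 6-hour array. Igdcc4 was at least 3.92-fold higher at 12 hours. Pfn2, an actin-binding profilin, was 6.04-fold higher, H2bc21, a replication-independent histone H2B gene, at least 2.39-fold and Gprin3 at least 2.86-fold, and these 3 genes did have their lowest mean of all groups at 6 hours. Cdt1 and Cyp7a1, the other members of the 15, are described with their pathways. Tardbp, Ttll1, Igdcc4, Pxylp1, Pigl, Nmrk1, Ddo, Afp, Cdt1 and Cyp7a1 each have at least 1 other probe set that was not called.

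The genes that fell most were of mixed kinds, and several were peaks at 6 hours. Sgms1, a sphingomyelin synthase, had levels of 6.78, 7.54, 7.84 and 7.75 at 12 hours, against 10.37, 10.22, 9.91 and 9.91 at 6 hours (change -2.63 ± 0.2, adjusted p = 3.1e-06), and its group mean was 6.59 in untreated liver, 6.76 at 1 hour, 7.74 at 24 hours and 7.31 at 48 hours. Tead1, the DNA-binding partner of the growth regulator Yap, had levels of 5.85, 7.2, 7.51 and 7.2 at 12 hours, against 9.38, 9.32, 9.32 and 9.71 at 6 hours (change -2.49 ± 0.28, adjusted p = 3.9e-05). Tiparp, a target of the aryl hydrocarbon receptor that adds ADP-ribose to proteins, had levels of 6.46, 7.02, 7.75 and 7.43 at 12 hours, against 9.55, 9.61, 9.4 and 9.53 at 6 hours (change -2.36 ± 0.21, adjusted p = 8.5e-06). No array of the 12-hour group reached the lowest 6-hour array for these 3 genes, although the 12-hour replicate 1 was the lowest array for all 3. The transcription repressor Bach2, Denn2b and the actin regulator Carmil1 were 5.19-fold, 5.35-fold and 4.81-fold lower at 12 hours. Others act in metabolism and transport. The transporter Abca8a was 7.66-fold lower, Etnppl, which degrades phosphoethanolamine, 7.66-fold, the aldehyde oxidase Aox3 5.68-fold and the ectonucleotidase Enpp3 4.93-fold, and none of their groups overlapped. The 15 also hold 9130409I23Rik, with means of 4.69 at 12 hours and 7.24 at 6 hours, and Gadd45a, Btg2, Upp2 and Thrsp, which are described with their pathways. Etnppl, Bach2 and Enpp3 each have at least 1 other probe set that was not called. Other alternatives ended the calls of Tead1, Bach2 and Denn2b with the Gapdh or poly-A covariate.

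**Figure D2:**
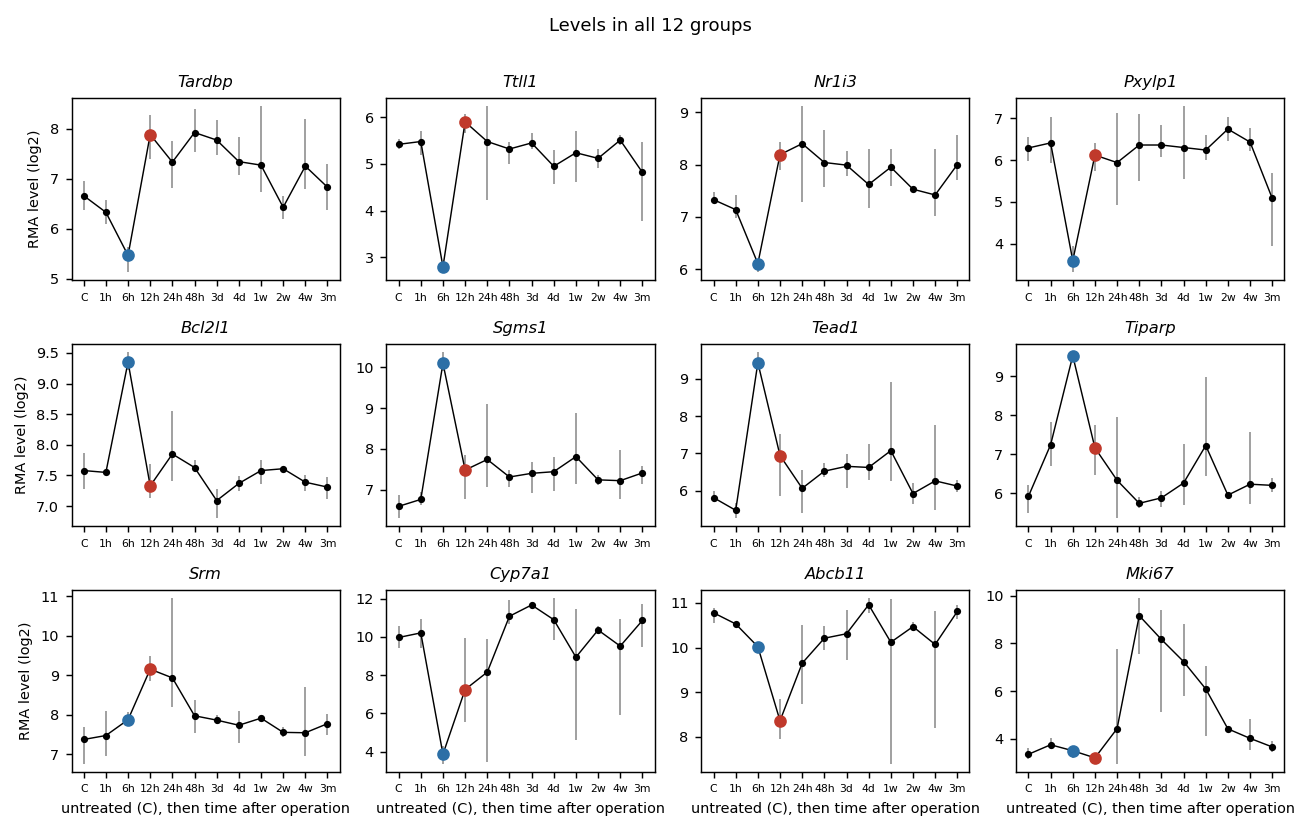
Log2 levels of 12 genes in all 12 groups, from untreated liver (C) to 3 months after the operation: points are group means, grey lines run from the lowest to the highest array, the red point is 12 hours and the blue point 6 hours. The top row shows genes with a trough at 6 hours, the middle row genes with a peak at 6 hours, and Mki67 reaches its peak only at 48 hours.

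Most of the immediate early genes fell. Of the 24 listed genes, all measured, 15 fell and 0 rose, with a median change of -0.64, against 9.44% of all genes falling and a median of -0.015. No member rose at an unadjusted p under 0.05 either (0 genes, limma), and in the fit of all 52 arrays 6 fell and 0 rose. Btg2, an antiproliferative early gene, had levels of 8.68, 8.57, 8.75 and 8.71 at 12 hours, against 11.04, 11.04, 11.52 and 11.33 at 6 hours (change -2.56 ± 0.12, adjusted p = 1.9e-07). Fos, a subunit of the factor AP-1, had levels of 6.26, 5.71, 5.75 and 6.47 at 12 hours, against 8.33, 8.08, 8.37 and 7.61 at 6 hours (change -2.05 ± 0.19, adjusted p = 1.2e-05). For both genes the highest 12-hour array lay below the lowest 6-hour array. Egr1, a zinc finger factor induced by growth signals, averaged 8.98 ± 0.28 at 12 hours and 10.85 ± 0.17 at 6 hours (SD, n = 4 each, change -1.87 ± 0.14). Ier2 was 3.3-fold and Atf3 2.26-fold lower at 12 hours. The 6-hour level of Btg2 lay above its mean of 10.37 at 1 hour, while Fos, Egr1 and Atf3 had higher means at 1 hour, 9.72, 11.39 and 7.65. Untreated means were 9.09 for Ier2, 10.3 for Egr1 and 7.34 for Fos (SD 1.91), each above its 12-hour mean. Ier2 averaged 9.02 at 6 hours, near its untreated mean. For Btg2 and Atf3 the untreated means, 7.99 and 4.88, lay below the 12-hour means. Myc, a growth factor response gene that is also a target of Stat3, was not called, with levels of 6.42, 6.52, 7.11 and 6.33 at 12 hours, against 6.56, 6.8, 6.21 and 6.66 at 6 hours. With all 52 arrays in the fit, Fos and Atf3 lost their calls.

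Genes listed for interleukin 6 and Stat3 signalling, among them the interleukin 1 receptor Il1r1, mostly fell. Of 20 measured genes 15 fell and 1 rose, against 9.44% and 19% of all genes. The median change was -0.58, and 4 fell and 0 rose in the fit of all 52 arrays. Il6 itself, the gene that rose, had levels of 2.17, 2.06, 2.18 and 1.9 at 12 hours, against 1.75, 1.82, 1.79 and 1.89 at 6 hours, all under the median of all probe sets, so that its probe set showed no level clear of background. Among the receptors, Il1r1, which binds interleukin 1, had levels of 8.09, 9.14, 8.96 and 8.98 at 12 hours, against 10.48, 10.46, 10.33 and 10.4 at 6 hours (change -1.63 ± 0.18, adjusted p = 4.4e-05), Il6ra changed by -0.94 ± 0.11 and Lifr by -1.19 ± 0.13. Stat3 had levels of 8.97, 9.2, 9.64 and 9.29 at 12 hours, against 9.78, 9.78, 9.7 and 9.86 at 6 hours (change -0.51 ± 0.13, adjusted p = 0.01). Among the targets, Socs3, the feedback inhibitor of the pathway, had levels of 9.96, 10.51, 9.42 and 9.98 at 12 hours, against 11.15, 11.22, 10.83 and 11.09 at 6 hours (change -1.1 ± 0.18, adjusted p = 0.00072). All 12-hour arrays lay below all 6-hour arrays for Il1r1, Il6ra, Lifr, Stat3 and Socs3. Even so, the 12-hour mean of Socs3 was 9.97 ± 0.44, against 7.24 in untreated liver. Bcl3, a nuclear cofactor of NF-kB, was 2.55-fold lower at 12 hours, and the phosphatase Ptpn2 2.08-fold, though another Ptpn2 probe set was called in the opposite direction. The fit of all 52 arrays left Lifr, Socs3, Il6ra, Stat3 and Il6 without their calls. Also lost were calls for Bcl3, Socs3, Il6ra and Stat3 with the Gapdh or poly-A covariate and Il6 in several other settings.

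Of the acute phase proteins, which this pathway drives, 5 of 23 measured rose and 0 fell (0 at an unadjusted p under 0.05 in limma), with a median change of 0.13, against 19% of all genes rising. With the trended and robust prior 12 rose, with the poly-A covariate 2, and with the Gapdh covariate or all 52 arrays 1 each. Apcs, the serum amyloid P component, had levels of 13.01, 13.08, 13.01 and 13.08 at 12 hours, against 12.38, 12.39, 12.07 and 12.05 at 6 hours (change 0.82 ± 0.1, adjusted p = 9e-05). Crp had levels of 11.71, 11.56, 11.63 and 11.55 at 12 hours, against 11.01, 10.89, 10.68 and 10.81 at 6 hours (change 0.77 ± 0.1), Saa3 changed by 0.91 ± 0.22 and Orm2 by 0.62 ± 0.15. The serum amyloid Saa1 and the iron-siderophore binder Lcn2 were not called. Saa1 had levels of 13.77 to 13.87 at 12 hours and 13.72 to 13.76 at 6 hours, against 8.61 in untreated liver, and Lcn2 12.61 to 12.76 at 12 hours and 12.55 to 12.63 at 6 hours, against 4.05. Both lie near the top of the array's range. Saa3, Apcs and Orm2 lost their calls in the fit of all 52 arrays. Other alternatives ended the calls of Saa3, Apcs, Crp and Orm2 with the Gapdh or poly-A covariate.

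NF-kB targets and inhibitors gave no common direction, with 3 higher and 5 lower of 21 and a median of -0.13. Of all genes 19% rose and 9.44% fell. Bcl2l1, which encodes the survival protein Bcl-xL, had levels of 7.14, 7.13, 7.68 and 7.37 at 12 hours, against 9.51, 9.27, 9.22 and 9.38 at 6 hours (change -2.02 ± 0.13, adjusted p = 9.3e-07), and at 6 hours lay above its means of 7.58 in untreated liver, 7.55 at 1 hour, 7.85 at 24 hours and 7.63 at 48 hours. Cxcl1, a neutrophil chemokine, had levels of 9.62, 11.09, 9.02 and 10.82 at 12 hours, against 11.97, 11.81, 11.77 and 11.98 at 6 hours (change -1.75 ± 0.35, adjusted p = 0.0027), with a wide spread among the 12-hour arrays. The inhibitor Nfkbie rose by at least 2.1-fold, with all 6-hour arrays under 3.98, while Nfkbiz, a nuclear cofactor, was 2.67-fold lower. Tnfaip2 rose by 1.14 ± 0.18 with one probe set and was not called with 2 others. Of 21 chemokines, 3 rose and 1, Cxcl1, fell. With all 52 arrays in the fit, Cxcl1, Nfkbiz and Tnfaip2 lost their calls. Calls were further lost for Cxcl1 and Tnfaip2 with the Gapdh or poly-A covariate.

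Many genes of G1/S entry and DNA replication rose, while nearly all of those of mitosis did not pass the test. Of 38 measured G1/S genes 16 rose and 2 fell, with a median change of 0.37, against 19% of all genes rising. In the fit of all 52 arrays 7 rose and 0 fell, and with the Gapdh covariate 3 rose and 1 fell. Cdt1, which licenses origins by loading the Mcm helicase, had levels of 7.79, 6.36, 6.15 and 6.08 at 12 hours, against 3.98, 3.87, 4.03 and 4.17 at 6 hours (change 2.58 ± 0.3, adjusted p = 4.6e-05). Ccnd1, the cyclin D1 that starts the G1 programme of hepatocytes, had levels of 9.46, 8.08, 7.72 and 8.06 at 12 hours, against 6.62, 7.34, 7.01 and 6.83 at 6 hours (change 1.38 ± 0.3, adjusted p = 0.0042). In both the 12-hour replicate 1 was the highest, above the 24-hour means of 6.97 for Cdt1 and 9.4 for Ccnd1, and without it the changes were 2.18 and 1.01, both still called. Cdk6, a kinase partner of D-type cyclins, had levels of 7.13, 6.78, 7.15 and 6.91 at 12 hours, against 5.57, 5.52, 5.57 and 5.75 at 6 hours (change 1.39 ± 0.11, adjusted p = 2.9e-06).

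The clamp loader subunits Rfc3 and Rfc4 rose by at least 2.52-fold and 2.66-fold. Ccne2, cyclin E2, had levels of 4.98, 3.97, 3.61 and 3.05 at 12 hours, against 2.21, 1.99, 2.09 and 2.24 at 6 hours, with both group means under the median of all probe sets, and is given without a fold. The helicase subunit Mcm2 rose by 0.75 ± 0.14, to 6.77 ± 0.22 at 12 hours, against 6.03 ± 0.27 at 6 hours and 6.55 in untreated liver. Tk1, a thymidine kinase used in S phase, fell by at least 1.84-fold, and E2f1, the transcription factor of the G1/S transition, changed by -0.32 ± 0.11. Of 25 mitosis genes 0 rose and 1, Cdk1, fell, against 19% and 9.44% of all genes. At an unadjusted p under 0.05 in limma 1 was higher and 4 lower. Mki67, the proliferation marker, had levels of 3.12, 3.12, 3.12 and 3.4 at 12 hours, against 3.67, 3.54, 3.19 and 3.55 at 6 hours and was not called, and its mean was 3.34 in untreated liver, 4.42 at 24 hours and 9.17 at 48 hours. The fit of all 52 arrays left Ccnd1, Mcm2, Tk1, E2f1 and Cdk1 without their calls. Also lost were calls for Cdt1, Ccnd1, Rfc3, Rfc4, Ccne2 and Mcm2 with the Gapdh or poly-A covariate and E2f1 and Cdk1 in several other settings.

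Cell cycle inhibitors and p53 targets were divided, with 5 higher and 5 lower of 20, against 19% and 9.44% of all genes. Cdkn1a, the inhibitor p21, had levels of 6.74, 8.11, 9.14 and 8.67 at 12 hours, against 10.23, 9.7, 10.09 and 10.02 at 6 hours (change -1.84 ± 0.38, adjusted p = 0.003). The 12-hour arrays were spread over more than 2-fold, with replicate 1 the lowest, and all lay below the 6-hour arrays but above the untreated mean of 5.11. Without that array the change was -1.37, still called. Gadd45a, a stress gene that inhibits Cdk1, had levels of 3.86, 3.44, 3.57 and 3.84 at 12 hours, against 5.99, 5.95, 7.33 and 7.43 at 6 hours (change -3.0 ± 0.3, adjusted p = 2e-05), a fall of at least 6.51-fold. Trp53inp1, a p53 target, fell by 1.23 on the log2 scale. The tubulin Tubb5 had levels of 9.07, 9.06, 9.45 and 8.87 at 12 hours, against 7.47, 7.08, 6.83 and 7.0 at 6 hours (change 2.02 ± 0.15, adjusted p = 2.5e-06), and Tubb4b was 2.58-fold higher at 12 hours, with no overlap for either. Trp53inp1 lost the call in the fit of all 52 arrays. Other alternatives ended the calls of Cdkn1a, Gadd45a, Trp53inp1 and Tubb4b with the Gapdh or poly-A covariate.

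**Figure D3:**
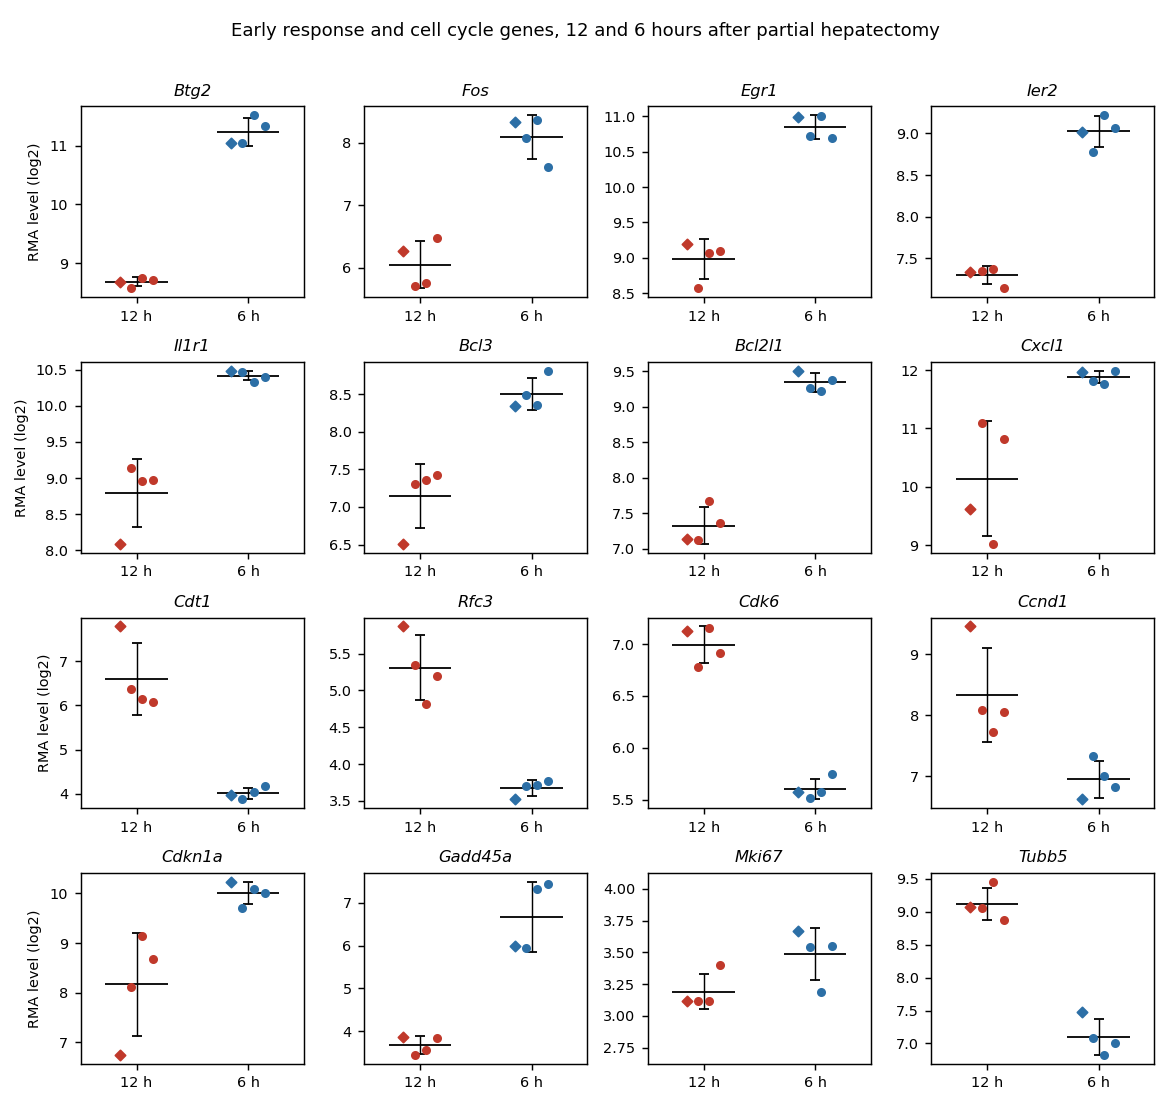
Log2 levels of 16 genes on the 4 arrays of 12 hours (red, left) and the 4 arrays of 6 hours (blue, right): diamonds mark replicate 1, horizontal lines the mean and vertical bars the SD. Btg2 to Cxcl1 lie lower at 12 hours without overlap, Cdt1 to Ccnd1 and Tubb5 higher, and the diamond of the 12-hour group lies apart for Il1r1, Bcl3, Cdt1, Ccnd1 and Cdkn1a.

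Where genes that supply ribosomes, nucleotides and nuclear traffic passed the test, nearly all rose, mostly by small amounts. Of 32 ribosome biogenesis genes 15 rose and 0 fell (median 0.26), of 22 cytosolic ribosomal proteins 14 and 0 (median 0.27), and of 25 mitochondrial ribosomal proteins 13 and 0 (median 0.29). Of 25 nuclear transport genes 12 rose and 0 fell (median 0.27), and of 21 nucleotide synthesis genes 12 and 2 (median 0.41). At an unadjusted p under 0.05 in limma, 1 ribosome biogenesis and 1 mitochondrial ribosomal gene fell and none of the cytosolic ribosomal or nuclear transport genes (0). The background of rising genes was 19% and the median of all genes -0.015, and centring on array medians moved that median to -0.096. In the fit of all 52 arrays 3, 0, 5, 3 and 6 members of these lists rose, in the same order. With median centring 10, 5, 7, 9 and 11 rose, with the poly-A covariate 5, 0, 4, 5 and 4, and with the Gapdh covariate 1, 0, 1, 1 and 2. Single arrays mattered for the cytosolic ribosomal proteins, of which 7 rose without 6-hour replicate 3 or 4 and 9 without 12-hour replicate 1, and for the mitochondrial ribosomal proteins, of which 7 rose without 6-hour replicate 3.

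Nop56, a core protein of the particles that methylate ribosomal RNA, had levels of 7.73, 7.76, 7.94 and 7.8 at 12 hours, against 6.73, 6.87, 6.54 and 6.83 at 6 hours (change 1.06 ± 0.1, adjusted p = 1e-05). Dkc1, the pseudouridine synthase of ribosomal RNA, changed by 0.69 ± 0.1, the nucleolar chaperone Npm1 by 0.66 ± 0.09, Wdr12 by 0.65 ± 0.1 and the methyltransferase Nop2 by 0.6 ± 0.15. Nop58, the partner of Nop56, was not called, with 8.67 ± 0.09 at 12 hours and 8.56 ± 0.21 at 6 hours, both above the untreated 6.62. The stalk protein gene Rplp0 had levels of 11.86, 11.87, 11.82 and 11.85 at 12 hours, against 11.54, 11.56, 11.34 and 11.44 at 6 hours (change 0.38 ± 0.09), a small shift without overlap. The mitochondrial ribosomal genes Mrpl17 and Mrpl22 changed by 0.9 ± 0.09 and 0.68 ± 0.09, with another Mrpl17 probe set called the other way.

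Xpo1, the main nuclear export receptor, had levels of 7.84, 7.76, 7.67 and 7.83 at 12 hours, against 6.79, 6.89, 6.66 and 6.7 at 6 hours (change 1.01 ± 0.09, adjusted p = 7.8e-06), and the importin Kpna3 changed by 0.7 ± 0.09. Uck2, a kinase that salvages uridine and cytidine, had levels of 6.51, 6.51, 7.38 and 6.63 at 12 hours, against 5.84, 5.4, 4.96 and 5.48 at 6 hours (change 1.34 ± 0.21, adjusted p = 0.00043), with 1 of its 6 probe sets called. Of the de novo enzymes, Ctps, CTP synthase, changed by 0.92 ± 0.09 and Cad, the first enzyme of pyrimidine synthesis, by 1.04 ± 0.18, while Paics, of purine synthesis, changed by -0.57 ± 0.1. Srm, which makes spermidine, had levels of 9.04, 9.26, 9.5 and 8.87 at 12 hours, against 7.76, 7.87, 7.82 and 8.08 at 6 hours (change 1.28 ± 0.13, adjusted p = 2.3e-05), and its mean was 7.38 in untreated liver, 7.48 at 1 hour, 8.94 at 24 hours and 7.98 at 48 hours. Every 12-hour array was above every 6-hour array for Xpo1, Uck2 and Srm. Odc1, which makes the precursor of spermidine, changed by 0.41 ± 0.11, Dhps, which uses spermidine to modify the factor eIF5A, by 0.71 ± 0.13, and Azin1, which protects Odc1 from degradation, by -0.6 ± 0.09.

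Among translation factors and tRNA synthetases there were calls in both directions. Of 21 factors 9 rose and 2 fell, and of 20 synthetases 7 rose and 3 fell, Eprs by 0.92 on the log2 scale. Proteasome subunits gave 7 higher and 0 lower of 27 (median 0.19, 0 lower at an unadjusted p under 0.05 in limma), and splicing genes 6 higher and 2 lower of 22, where 19% of all genes rose and 9.44% fell. With median centring 5 factors, 2 synthetases and 3 proteasome genes rose, with all 52 arrays 1, 0 and 0, with the Gapdh covariate 0, 1 and 0, and with the poly-A covariate 2, 0 and 0. Without 12-hour replicate 2 only 2 synthetases rose, and without 6-hour replicates 2, 3 or 4 there were 4, 3 and 3. Of the proteasome genes 3 or 4 rose without any one of 6 arrays, all but 12-hour replicates 1 and 3. Respiratory chain genes gave 0 higher and 2 lower of 25, with 1 higher and 4 lower at an unadjusted p under 0.05. With all 52 arrays in the fit, Wdr12, Nop2, Rplp0, Cad, Odc1 and Azin1 lost their calls. Calls were further lost for Dkc1, Npm1, Wdr12, Nop2, Rplp0, Mrpl22, Kpna3, Uck2, Cad, Paics, Odc1, Dhps and Eprs with the Gapdh or poly-A covariate and Wdr12, Mrpl17 and Uck2 with another summary of probe sets, prior or array weight.

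**Figure D4:**
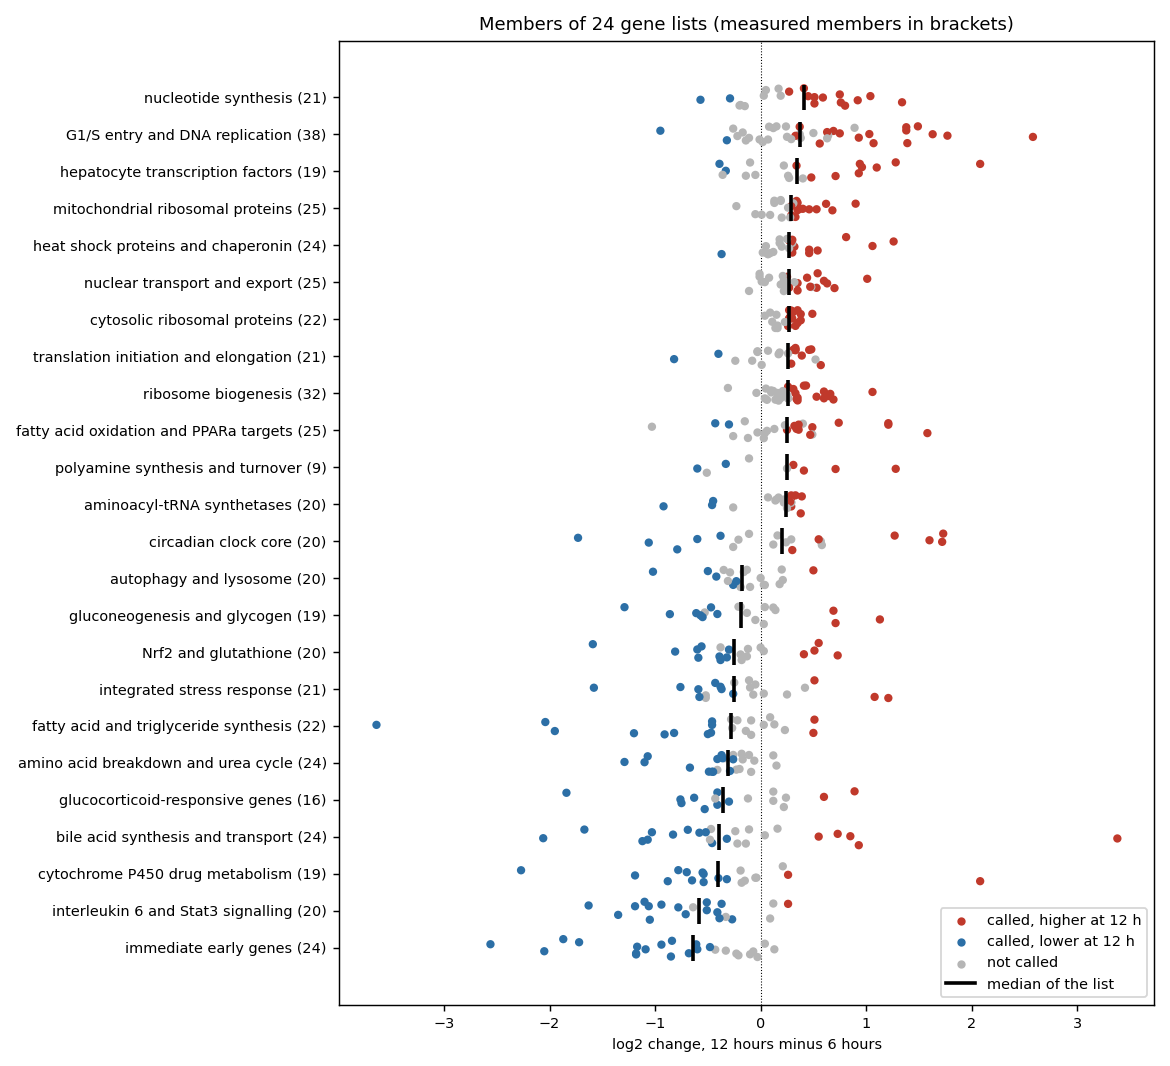
Each point is the log2 change (12 hours minus 6 hours) of 1 measured member of a gene list, with the number measured in brackets: red points were called higher at 12 hours, blue points called lower, grey points were not called, and black ticks are list medians. The 24 lists are the 13 with the highest and the 11 with the lowest medians of 43 pathway lists, from 0.41 for nucleotide synthesis to -0.64 for immediate early genes.

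Clock genes moved in both directions, with the repressors Cry1, Per2 and Per3 up and Nfil3 and Nr1d1 down. Of 20 core clock genes measured 6 rose and 5 fell, against 19% and 9.44% of all genes. In the fit of all 52 arrays 2 rose, Cry1 and Per2, and 1 fell, Nfil3. Without 12-hour replicate 1, 3 fell. Promoters of 17 clock genes were found in RefSeq (build GRCm38.p6, 250 bases before to 50 after the start), and 4 are shown, 2 of genes that rose and 2 of genes that fell, because the motifs of the clock loop are in them. The letters searched on both strands were CACGTG (the E-box bound by Arntl and Clock), TTATGTAA (the D-box bound by Dbp and Nfil3) and TAGGTCA (the element bound by Ror and Rev-erb receptors), and 0 matches of 1 motif overlapped a match of another in the clock promoters. They occur in 7.15%, 0.938% and 2.61% of 32851 promoters. Of the 17 clock genes, 5 hold the E-box, 1 the D-box and 2 the Ror element, and of the Arntl promoters the one that holds it is shown. The percentages count promoters, while a clock gene counts if any of its promoters holds the motif, so the 2 cannot be compared directly. Capitals mark the match, on either strand.
Cry1 (chr10:85185005-85185304, minus strand, E-box): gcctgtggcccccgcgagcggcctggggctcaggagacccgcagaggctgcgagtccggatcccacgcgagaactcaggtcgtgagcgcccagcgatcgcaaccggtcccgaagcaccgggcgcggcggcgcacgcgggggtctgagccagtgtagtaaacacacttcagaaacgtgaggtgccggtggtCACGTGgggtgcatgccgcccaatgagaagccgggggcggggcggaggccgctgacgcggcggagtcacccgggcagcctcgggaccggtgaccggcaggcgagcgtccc
Per3 (chr4:151044616-151044915, minus strand, D-box, 2 matches): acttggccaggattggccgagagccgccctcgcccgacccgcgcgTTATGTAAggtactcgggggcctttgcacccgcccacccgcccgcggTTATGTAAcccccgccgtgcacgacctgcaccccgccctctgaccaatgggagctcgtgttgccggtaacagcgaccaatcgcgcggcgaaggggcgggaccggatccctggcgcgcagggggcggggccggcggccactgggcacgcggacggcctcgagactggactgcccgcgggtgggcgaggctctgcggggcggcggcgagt
Arntl (chr7:113207261-113207560, plus strand, Ror element): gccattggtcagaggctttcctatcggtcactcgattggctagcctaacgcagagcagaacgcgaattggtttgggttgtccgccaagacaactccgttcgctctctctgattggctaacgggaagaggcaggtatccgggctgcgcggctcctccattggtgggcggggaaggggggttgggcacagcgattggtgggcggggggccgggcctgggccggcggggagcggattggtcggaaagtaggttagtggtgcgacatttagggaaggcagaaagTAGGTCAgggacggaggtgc
Nfil3 (chr13:52980990-52981289, minus strand, Ror element): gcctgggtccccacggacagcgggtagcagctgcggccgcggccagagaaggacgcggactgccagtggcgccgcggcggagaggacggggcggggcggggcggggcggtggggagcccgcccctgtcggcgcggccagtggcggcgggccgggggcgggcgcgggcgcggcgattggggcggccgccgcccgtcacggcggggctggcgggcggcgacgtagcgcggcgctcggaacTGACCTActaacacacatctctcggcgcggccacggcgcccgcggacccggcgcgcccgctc

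A match of letters is a description and not a binding site. Cry1, the repressor with the E-box above, had levels of 6.38, 6.92, 7.05 and 6.77 at 12 hours, against 5.0, 4.91, 5.34 and 5.49 at 6 hours (change 1.6 ± 0.16, adjusted p = 1.8e-05). Per2, its partner, had levels of 6.51, 6.93, 6.69 and 6.47 at 12 hours, against 3.98, 4.99, 5.36 and 5.4 at 6 hours (change 1.72 ± 0.26, adjusted p = 0.00031). Per3, with both D-box matches, had levels of 5.79, 5.06, 5.06 and 5.27 at 12 hours, against 3.96, 4.3, 3.72 and 4.11 at 6 hours (change 1.27 ± 0.17, adjusted p = 0.00012). All 12-hour arrays were above all 6-hour arrays for Cry1, Per2 and Per3, and for Per2 the 6-hour replicate 1 was the lowest array. Per1, which holds an E-box too, was not called, with levels of 7.01, 7.14, 7.36 and 7.39 at 12 hours, against 6.7, 6.96, 7.0 and 7.27 at 6 hours. Nfil3, a repressor at D-boxes, had levels of 7.06, 7.85, 7.78 and 6.99 at 12 hours, against 9.3, 8.88, 9.09 and 9.33 at 6 hours (change -1.73 ± 0.19, adjusted p = 3.9e-05). Nr1d1, the receptor Rev-erb alpha, had levels of 4.16, 4.35, 4.47 and 4.22 at 12 hours, against 5.18, 5.09, 5.0 and 5.1 at 6 hours (change -0.79 ± 0.09, adjusted p = 6.5e-05). Both fell without overlap.

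Arntl and Dbp were called, but their calls depended on single arrays. Arntl, the activator of the loop, had levels of 3.99, 4.0, 5.08 and 4.94 at 12 hours, against 6.5, 4.95, 5.33 and 5.46 at 6 hours (change -1.06 ± 0.32, adjusted p = 0.026). Dbp, an activator at D-boxes, had levels of 9.63, 8.03, 6.6 and 7.81 at 12 hours, against 5.16, 6.98, 6.48 and 6.53 at 6 hours (change 1.73 ± 0.52, adjusted p = 0.026). In both genes the groups overlapped, and the 2 arrays numbered 1 were the extremes. Without both of these arrays, an alternative chosen after seeing the data, the change was -0.57 for Arntl and 0.82 for Dbp, neither of them called, while Cry1, Per2 and Nfil3 remained called at 1.67, 1.45 and -1.56. In that fit 4 core clock genes rose and 4 fell. Arntl also lost its call without 12-hour replicate 1, 12-hour replicate 2 or 6-hour replicate 1 alone, with changes of -0.89, -0.89 and -0.75. Dbp lost it without 12-hour replicate 2, 6-hour replicate 1 or 6-hour replicate 3, with changes of 1.72, 1.35 and 1.79. The fit of all 52 arrays, the trended and robust prior and the Gapdh and poly-A covariates did not call either gene.

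Among the clock output genes of liver 4 rose and 4 fell of 18, against 19% and 9.44% of all genes. There were 2 higher without 12-hour replicate 3 or 6-hour replicate 2, and 0 higher with all 52 arrays or either covariate. Upp2, a uridine phosphorylase, had the lowest change of all genes called in both fits, with levels of 7.02, 4.25, 3.46 and 3.31 at 12 hours, against 9.24, 8.64, 10.15 and 9.8 at 6 hours (change -4.95 ± 0.65, adjusted p = 0.00013). The 12-hour replicate 1 was over 2-fold above its fellows, and without it, with a 12-hour mean under 3.98, Upp2 was at least 44.6-fold lower at 12 hours. Its group mean was 9.73 in untreated liver, 11.14 at 1 hour, 6.25 at 24 hours and 9.71 at 48 hours. Chka, choline kinase alpha, had levels of 4.22, 5.31, 5.77 and 5.16 at 12 hours, against 8.24, 6.69, 6.71 and 7.18 at 6 hours (change -2.09 ± 0.35, adjusted p = 0.00074). Wee1, a kinase that restrains entry into mitosis and is driven by the clock, had levels of 7.84, 6.7, 6.62 and 6.9 at 12 hours, against 5.95, 6.34, 5.98 and 5.72 at 6 hours (change 1.02 ± 0.23, adjusted p = 0.0054). Per3, Nr1d1 and Wee1 lost their calls in the fit of all 52 arrays. The Gapdh or poly-A covariate ended the calls of Per3, Nfil3, Nr1d1, Upp2, Chka and Wee1. With the Gapdh covariate the change was -5.09 for Upp2, -2.36 for Chka, -1.39 for Nfil3, 0.96 for Per3 and 0.61 for Wee1.

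**Figure D5:**
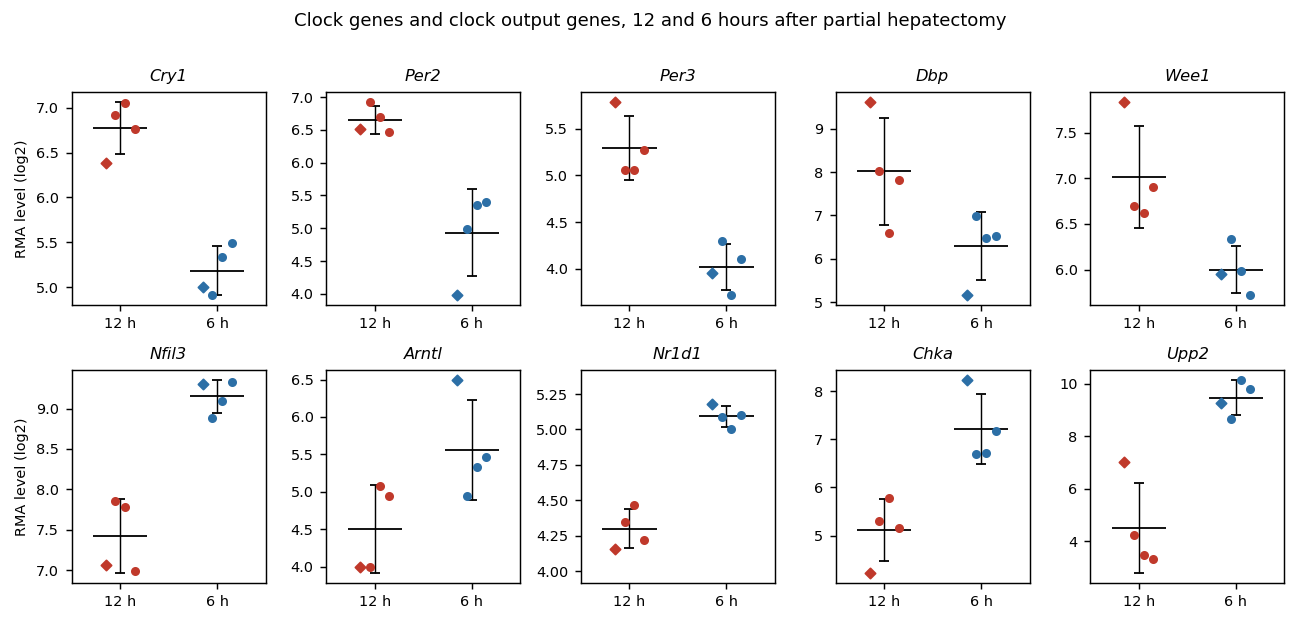
Log2 levels of 10 clock and clock output genes on the 4 arrays of 12 hours (red, left) and of 6 hours (blue, right), with the mean as a line and the SD as a bar: diamonds mark replicate 1 of each group. Cry1, Per2 and Per3 lie higher at 12 hours and Nfil3 and Nr1d1 lower, without overlap, while Dbp and Arntl overlap and the diamonds are their extremes.

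Bile acid and cytochrome P450 genes fell more often than they rose, with a few large rises against this. Of 24 bile acid genes 5 rose and 11 fell (median -0.39), and of 19 genes of drug metabolism 2 rose and 11 fell (median -0.4), against 9.44% of all genes falling. In the fit of all 52 arrays the counts were 2 and 2 for the first list and 1 and 1 for the second. Cyp7a1, the enzyme that limits the rate of bile acid synthesis, had levels of 9.94, 6.63, 5.57 and 6.87 at 12 hours, against 3.38, 3.51, 4.3 and 4.28 at 6 hours (change 3.38 ± 0.68, adjusted p = 0.0026), at least 9.68-fold higher at 12 hours. The 12-hour replicate 1 was close to the untreated mean of 9.97, the other 3 far below it, and without that array Cyp7a1 was at least 5.21-fold higher at 12 hours. Akr1d1, a reductase of the same pathway, had levels of 6.86, 6.73, 6.13 and 6.13 at 12 hours, against 8.78, 8.31, 8.7 and 8.31 at 6 hours (change -2.06 ± 0.18, adjusted p = 7.1e-06). Abcb11, the bile salt export pump, had levels of 8.34, 8.84, 7.94 and 8.31 at 12 hours, against 10.11, 10.02, 9.97 and 9.98 at 6 hours (change -1.67 ± 0.15, adjusted p = 9.1e-06), and its mean was 10.78 in untreated liver, 10.53 at 1 hour, 9.65 at 24 hours and 10.21 at 48 hours. The 12-hour mean of Abcb11 was the lowest of all 12 groups.

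The nuclear receptor genes Nr1i3 and Nr1h4 rose. Nr1i3, the xenobiotic receptor CAR, had levels of 8.16, 7.9, 8.44 and 8.26 at 12 hours, against 6.12, 5.95, 6.17 and 6.2 at 6 hours (change 2.08 ± 0.12, adjusted p = 5.1e-07). Nr1h4, the bile acid receptor FXR, changed by 0.93 ± 0.16. Cyp2b10, a target of CAR in mouse liver, had levels of 5.49, 5.64, 6.75 and 6.57 at 12 hours, against 8.6, 7.42, 9.13 and 8.37 at 6 hours (change -2.27 ± 0.34, adjusted p = 0.00036), and at both times lay above the untreated 4.08. The groups of Nr1i3, Nr1h4 and Cyp2b10 did not overlap. Cyp3a25 and Cyp2c54 were 2.28-fold and 1.84-fold lower at 12 hours, the uptake transporter Slco1a4 2.17-fold lower, and Cyp2a12 changed by 0.26 ± 0.09. With all 52 arrays in the fit, Cyp2b10, Cyp2c54, Slco1a4 and Cyp2a12 lost their calls. Calls were further lost for Cyp7a1, Cyp2b10 and Slco1a4 with the Gapdh or poly-A covariate and Cyp2a12 in several other settings.

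Fatty acid synthesis genes fell in part, and Srebf1 and Fasn did not pass the test. Of 22 genes 2 rose and 10 fell (median -0.28, and 0 and 2 with all 52 arrays), against 9.44% of all genes falling. Thrsp, a nuclear protein induced with lipogenesis, had levels of 8.12, 7.7, 6.95 and 7.77 at 12 hours, against 11.31, 10.88, 11.55 and 11.37 at 6 hours (change -3.64 ± 0.21, adjusted p = 7.4e-07). Acss2, which makes acetyl-CoA from acetate, had levels of 7.14, 7.27, 6.43 and 6.79 at 12 hours, against 9.34, 9.1, 8.82 and 8.51 at 6 hours (change -2.04 ± 0.2, adjusted p = 1.4e-05). Both genes separated the groups fully. The elongase Elovl3 was 3.87-fold and Acly, which makes acetyl-CoA from citrate, 2.3-fold lower at 12 hours, and Gpam, the first enzyme of triglyceride synthesis, changed by 0.51 ± 0.09. Srebf1, the master regulator, was not called, at 7.26 ± 0.18 at 12 hours and 7.17 ± 0.14 at 6 hours (SD, n = 4 each), against 10.19 in untreated liver. The same held for fatty acid synthase, Fasn, at 7.67 ± 0.32 at 12 hours and 7.64 ± 0.11 at 6 hours, against 10.02 in untreated liver.

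Cholesterol genes split within the pathway, with 8 higher and 5 lower of 20 measured, against 19% and 9.44% of all genes. With all 52 arrays 2 rose and 1 fell, and 5 rose without 12-hour replicate 2, 6-hour replicate 2 or 6-hour replicate 4. Mvd, the mevalonate decarboxylase, had levels of 6.45, 6.31, 5.96 and 6.02 at 12 hours, against 4.78, 4.79, 4.39 and 4.42 at 6 hours (change 1.59 ± 0.14, adjusted p = 6.7e-06). Pmvk, which acts one step before it, had levels of 7.05, 7.45, 7.12 and 7.43 at 12 hours, against 9.52, 8.28, 8.58 and 8.81 at 6 hours (change -1.54 ± 0.21, adjusted p = 0.00019). The groups of both genes were apart, in opposite directions. The sterol carrier Stard4 changed by 1.12 ± 0.18, Msmo1 by 1.04 ± 0.23 and Nsdhl, both enzymes of the later sterol steps, by -0.83 ± 0.13.

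Targets of the fasting receptor PPAR alpha and genes of fatty acid oxidation rose in 11 of 25 cases and fell in 2 (median 0.25), against 19% of all genes rising. Acot2, a mitochondrial thioesterase, had levels of 8.98, 9.0, 9.91 and 9.59 at 12 hours, against 7.57, 8.01, 7.51 and 8.08 at 6 hours (change 1.58 ± 0.21, adjusted p = 0.00012). The hormone Fgf21 changed by 1.21 ± 0.25 and the pantetheinase Vnn1 by 1.21 ± 0.22. Pdk4, a kinase that spares glucose, was not called and had a wide spread among the 12-hour arrays, with levels of 6.56, 8.93, 10.68 and 8.48 at 12 hours, against 9.62, 9.81, 9.22 and 10.09 at 6 hours, all above its untreated mean of 5.08. With the poly-A covariate 1 member of this list rose, with the Gapdh covariate or all 52 arrays 2 each, and with median centring 7. Without any one of 5 arrays, 12-hour replicates 3 and 4 and 6-hour replicates 1, 2 and 3, 6 or 7 rose. The fit of all 52 arrays left Elovl3, Acly, Gpam, Msmo1, Nsdhl, Fgf21 and Vnn1 without their calls. Also lost were calls for Gpam, Stard4, Msmo1, Nsdhl, Fgf21 and Vnn1 with the Gapdh or poly-A covariate.

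Amino acid breakdown fell in 12 of 24 genes and rose in 0 (0 at an unadjusted p under 0.05 in limma), with a median of -0.31, and 2 fell with all 52 arrays. Got1, aspartate aminotransferase, had levels of 10.38, 10.8, 10.23 and 10.32 at 12 hours, against 11.86, 11.52, 11.67 and 11.83 at 6 hours (change -1.29 ± 0.13, adjusted p = 1.8e-05). Cbs, of homocysteine removal, was 2.14-fold and Prodh, of proline breakdown, 2.1-fold lower at 12 hours. None of the 3 overlapped between groups. Genes of gluconeogenesis and glycogen gave 3 higher and 7 lower of 19, against 19% and 9.44% of all genes. Pygl, the liver glycogen phosphorylase, had levels of 9.45, 9.3, 9.1 and 9.42 at 12 hours, against 10.65, 10.7, 10.54 and 10.54 at 6 hours (change -1.29 ± 0.1, adjusted p = 3.1e-06), while Ppp1r3b, which activates glycogen synthase, was 2.19-fold higher at 12 hours. G6pc, which releases glucose, changed by 0.71 ± 0.18, and Pck1 was not called, at 12.5 ± 0.15 at 12 hours and 12.37 ± 0.09 at 6 hours. Igfbp1, an early hepatectomy gene suppressed by insulin, changed by -0.41 ± 0.1 from a high level, 12.92 ± 0.17 at 12 hours and 13.33 ± 0.07 at 6 hours, against 9.97 in untreated liver. Prodh, Ppp1r3b, G6pc and Igfbp1 lost their calls in the fit of all 52 arrays. Other alternatives ended the calls of Ppp1r3b, G6pc and Igfbp1 with the Gapdh or poly-A covariate.

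Hepatocyte transcription factors rose in 9 of 19 cases and fell in 2 (median 0.34, and 5 and 0 with all 52 arrays). The shares of all genes were 19% and 9.44%. Foxa1, a pioneer factor of liver, had levels of 7.23, 7.77, 7.43 and 7.45 at 12 hours, against 6.28, 6.22, 5.91 and 6.35 at 6 hours (change 1.28 ± 0.13, adjusted p = 1.9e-05), and Onecut1 was 2.14-fold higher at 12 hours. Their untreated means were 8.06 for Foxa1 and 7.61 for Onecut1. Hnf4a, the central factor of hepatocyte identity, changed by -0.33 ± 0.09, and Cebpb, a factor of the early regenerative response, by -0.39 ± 0.09. Of 25 plasma proteins made by mature hepatocytes 0 rose and 2 fell, with 2 higher and 6 lower at an unadjusted p under 0.05 in limma. With median centring 7 fell, with the trended and robust prior 7 and with the average of all probe sets per gene 5.

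Of 16 growth hormone axis and sex-biased genes 1 rose and 4 fell, against 19% and 9.44% of all genes, and 0 were called with all 52 arrays. The receptor gene Ghr had levels of 10.74, 10.43, 10.15 and 10.51 at 12 hours, against 11.28, 11.28, 11.53 and 11.47 at 6 hours (change -0.94 ± 0.12, adjusted p = 0.00013), and the repressor Bcl6 was 2.1-fold higher at 12 hours. Hsd3b5, a male-biased steroid enzyme, had levels of 6.47, 3.47, 3.32 and 3.82 at 12 hours, against 6.65, 6.28, 6.24 and 6.39 at 6 hours (change -2.12 ± 0.53, adjusted p = 0.0095). Here the 12-hour replicate 1 lay among the 6-hour arrays and the other 3 far below, and without it, with a 12-hour mean under 3.98, Hsd3b5 was at least 5.33-fold lower at 12 hours. All were far under the untreated mean of 11.17. With all 52 arrays in the fit, Onecut1, Hnf4a, Cebpb, Ghr, Bcl6 and Hsd3b5 lost their calls. Calls were further lost for Onecut1, Hnf4a, Cebpb and Hsd3b5 with the Gapdh or poly-A covariate, Hnf4a without replicate 1 of both groups (-0.25) and Hsd3b5 with another summary of probe sets, prior or array weight.

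Chaperone genes rose in 11 of 24 cases and fell in 1 (median 0.27), against 19% of all genes rising. With median centring 6 rose, with all 52 arrays or the poly-A covariate 2 each and with the Gapdh covariate 1, and 6 or 7 rose without 6-hour replicate 2, 3 or 4. Hsph1, a nucleotide exchange factor for Hsp70, had levels of 8.31, 8.57, 8.56 and 8.22 at 12 hours, against 7.56, 7.29, 7.09 and 7.48 at 6 hours (change 1.06 ± 0.12, adjusted p = 5.1e-05), Dnajb1 changed by 0.81 ± 0.13 and the inducible Hsp70 gene Hspa1b by 1.26 ± 0.25, whose groups overlapped. The unfolded protein response had no single direction, with 6 higher and 3 lower of 23, against 19% and 9.44% of all genes. Ern1, the endoplasmic reticulum sensor IRE1, had levels of 8.74, 8.42, 8.55 and 8.31 at 12 hours, against 6.51, 6.78, 6.36 and 6.37 at 6 hours (change 2.0 ± 0.12, adjusted p = 8.2e-07), but another of its 5 probe sets was called the other way. Atf6, a second sensor, had levels of 6.9, 7.23, 6.58 and 6.5 at 12 hours, against 7.92, 7.84, 8.06 and 8.27 at 6 hours (change -1.22 ± 0.15, adjusted p = 9.8e-05), and the chaperone Hspa5 was not called, at 12.67 ± 0.06 at 12 hours and 12.8 ± 0.11 at 6 hours.

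Genes of the integrated stress response gave 3 higher and 8 lower of 21, and Nrf2 and glutathione genes 4 higher and 9 lower of 20. Over all genes 19% rose and 9.44% fell. Without 12-hour replicate 1, 12-hour replicate 2 or 6-hour replicate 1, 5 genes of the first list fell, and without 6-hour replicate 1 or 2, 5 of the second. Gclc, the rate-limiting enzyme of glutathione synthesis, had levels of 8.74, 8.61, 8.73 and 8.87 at 12 hours, against 10.95, 10.3, 10.1 and 9.95 at 6 hours (change -1.59 ± 0.18, adjusted p = 3.9e-05). Cth, which makes cysteine for glutathione, had levels of 10.55, 10.54, 9.81 and 9.99 at 12 hours, against 12.0, 11.73, 11.79 and 11.69 at 6 hours (change -1.58 ± 0.16, adjusted p = 2.1e-05). Both steps were lower in every 12-hour array. Txnrd1, thioredoxin reductase, changed by -0.59 ± 0.11. Psat1, of serine synthesis, rose by at least 2.01-fold, and its driver Atf4 was not called, at 9.36 ± 0.13 at 12 hours and 9.11 ± 0.03 at 6 hours. The metal-binding Mt1 was not called, at 13.47 ± 0.07 at 12 hours and 13.58 ± 0.03 at 6 hours, against 7.85 in untreated liver. The fit of all 52 arrays left Hspa1b and Psat1 without their calls. Also lost were calls for Dnajb1, Hspa1b, Atf6, Txnrd1 and Psat1 with the Gapdh or poly-A covariate and Txnrd1 and Psat1 with another summary of probe sets, prior or array weight.

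Growth factor genes showed no shared movement. Of 20 ligands and receptors 4 rose (20%) and 5 fell (25%), against 19% and 9.44% of all genes. Without 12-hour replicate 3, 6-hour replicate 2 or 6-hour replicate 4, 3 fell. Hgf, the hepatocyte growth factor, was not called, at 4.61 ± 0.07 at 12 hours and 4.41 ± 0.15 at 6 hours, and its receptor Met changed by 0.41 ± 0.13. Spry4, a feedback inhibitor of receptor signalling, fell by at least 2.19-fold. In the activin, BMP and TGF-beta list 5 rose (23.8%) and 4 fell (19%) of 21, against the same shares of all genes. Id1, a BMP target, had levels of 6.18, 6.58, 7.03 and 6.91 at 12 hours, against 8.34, 8.27, 8.11 and 8.21 at 6 hours (change -1.56 ± 0.16, adjusted p = 1.9e-05), and Bmper, a secreted modulator of BMP, had levels of 7.73, 8.62, 8.21 and 8.0 at 12 hours, against 6.61, 6.87, 7.09 and 7.47 at 6 hours (change 1.13 ± 0.2, adjusted p = 0.001). Every array of both times was far above the untreated mean of 2.97 for Bmper. Glucocorticoid-responsive genes fell in 8 and rose in 2 of 16 cases, and the list shares Cdkn1a with the inhibitors above. Of all genes 9.44% fell and 19% rose. With all 52 arrays 1 member of this list fell and 0 rose, with the Gapdh covariate 0 and 0, and with the poly-A covariate 3 and 1. Without 12-hour replicate 1 or 6-hour replicates 1, 3 or 4, 4 or 5 members fell. Met and Bmper lost their calls in the fit of all 52 arrays. Met lost it in several other settings too.

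Marker lists of the liver's cell types had 1 to 4 calls each, set against 19% of all genes rising and 9.44% falling. The called members, higher and lower, numbered 0 and 2 of 11 for hepatocytes, 2 and 2 of 15 for Kupffer cells, 2 and 0 of 13 for monocytes and infiltrating macrophages, 0 and 3 of 13 for neutrophils, and 0 and 3 of 15 for sinusoidal endothelial cells. They numbered 3 and 1 of 15 for stellate cells and fibroblasts, 0 and 1 of 9 for biliary cells, 0 and 1 of 14 for T and NK cells, and 0 and 1 of 10 for B and plasma cells. At an unadjusted p under 0.05 in limma, 0 hepatocyte, 0 neutrophil, 0 endothelial, 0 T and NK and 0 B cell markers were higher. The mean marker level of T and NK cells was 3.52 to 3.72 at 12 hours and 3.78 to 3.85 at 6 hours, and 7 of its 14 markers lay under the median of all probe sets in both groups. That of B and plasma cells was 3.7 to 3.9 at 12 hours and 3.93 to 4.05 at 6 hours. The summed linear signal of Kupffer cell markers was 1520 to 1880 at 12 hours and 1950 to 2430 at 6 hours, that of hepatocyte markers 74900 to 78600 at 12 hours and 79400 to 81700 at 6 hours, and that of neutrophil markers 6800 to 7280 at 12 hours and 6400 to 6680 at 6 hours. None of these ranges overlapped. Lcn2, also on the neutrophil list, made up most of the neutrophil sum, with means of 12.69 at 12 hours and 12.58 at 6 hours. Of the 13 neutrophil markers 11 had a negative change. Of the 15 Kupffer cell markers 10 had a negative and 5 a positive change. Among these, C6 had means of 8.69 at 12 hours and 9.34 at 6 hours, and Id3 8.42 at 12 hours and 9.08 at 6 hours, while Marco rose. The mean marker level did overlap for Kupffer cells, 5.93 to 6.4 at 12 hours and 6.14 to 6.37 at 6 hours. It also overlapped for hepatocytes (11.88 to 12 and 11.98 to 12.13) and neutrophils (4.94 to 5.33 and 5.16 to 5.48). The part of these signals in the results was not tested. With median centring 8 T and NK cell and 6 neutrophil markers were lower, and without 6-hour replicate 2, 1 neutrophil marker was. Genes with both means under that median changed by a median of -0.06, and those with both above by 0.06. Fewer cells of a type and less RNA per cell cannot be told apart in whole liver.

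Single markers changed more. Marco, a scavenger receptor of Kupffer cells, had levels of 5.52, 5.57, 5.56 and 5.43 at 12 hours, against 4.92, 4.45, 4.32 and 4.48 at 6 hours (change 0.98 ± 0.12, adjusted p = 8.5e-05). Lrat, which stores retinol in stellate cells, had levels of 5.15, 5.94, 5.61 and 5.08 at 12 hours, against 3.57, 4.23, 4.92 and 4.65 at 6 hours (change 1.1 ± 0.26, adjusted p = 0.0073). The groups of both genes were apart. Tfrc, the transferrin receptor, was listed with erythroid cells but is expressed by dividing cells and hepatocytes too. It had levels of 9.61, 9.87, 9.9 and 9.9 at 12 hours, against 7.43, 8.35, 7.52 and 7.67 at 6 hours (change 2.08 ± 0.17, adjusted p = 5.3e-06), and it carried the rise of the summed linear signal of the 7 erythroid markers measured, 1070 to 1230 at 12 hours and 544 to 702 at 6 hours, while 2 other erythroid markers fell. With all 52 arrays in the fit, Marco lost the call. Calls were further lost for Marco with the Gapdh or poly-A covariate.

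The genes that moved between 6 and 12 hours were also set beside those that differ at 48 hours, near the peak of Mki67, from untreated liver, a comparison that shares no array with the first. At 48 hours 3254 genes (17.9%) were higher and 2326 (12.8%) lower than in untreated liver. Of the 3450 genes that rose between 6 and 12 hours, 1430 (41.4%, and 43.9% of the 48-hour list) were also higher at 48 hours and 137 (3.97%) were lower. Of the 1718 that fell, 385 (22.4%, and 16.6% of the 48-hour list) were lower at 48 hours and 220 (12.8%) higher. These overlaps are given without a test.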

How the data were processed

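Total liver RNA was hybridized to 1 Affymetrix array per sample, per the labels' protocols. The authors deposited log2 summaries per probe set, for which the submitters' processing notes name oligo 1.52.0 and RMA. This method makes the distributions of arrays alike, so a shift common to most genes cannot be seen, and the sources used here do not say which arrays were normalized at one time. Of 45101 probe sets, the platform annotation gave 1 gene for 34958, several for 932 and none for 9211, and the first kind alone was named. Entrez identifiers matched 18033 of 18194 genes to the GRCm38.p6 gene table, and 161 kept the annotation symbol. A gene was read from whichever of its probe sets had the highest 52-array mean, and 151 called genes have another probe set called the other way.

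The 4 arrays of 12 hours were compared with the 4 of 6 hours in limma 3.58.1 (lmFit and eBayes, R 4.3.3), two-sided, with p-values adjusted by the Benjamini-Hochberg method over all genes and calls at an adjusted p under 0.05. Sample titles gave the time and the replicate number. The number of arrays limits the precision, and scan dates were not used here. In simulated data of 18194 genes, 60% of 50 genes changed 1.5-fold and 88% of 50 changed 2-fold were found, with 4 false calls. Only 50 genes were changed at each fold of 1.5, 2, 3 and 4, with normal noise. That is far fewer than the 5168 called here, so these shares need not hold for the real comparison. The 14 alternatives changed the fit (all 52 arrays, a block for the replicate number, a prior that was trended and robust, weights per array), the probe sets (their mean per gene, each on its own, without dim genes), the scaling (centring on medians, quantile normalization once more), the threshold (0.01, or at least 2-fold) or added 1 of 3 covariates (hybridization controls, poly-A controls, Gapdh 3' minus 5' difference). Each of the 8 arrays was also left out in turn, and an alternative without replicate 1 of both groups was added after seeing the data. The members, the 53 gene lists (43 pathways, 10 cell types) and the tests were chosen with earlier results of these data known. Genes were named by a rule: index genes (34 of 36 measured), the 15 highest and 15 lowest changes called in both fits without overlap of the arrays, and up to 5 called members per list with up to 2 in the rarer direction, of which the text names a part. Of the listed genes 89 were not analysed here.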

Additional observations from a re-analysis of the deposited data

Results flagged for a closer look

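In 15 of 324 groups of 4 arrays, 1 array lay far from its 3 fellows by Dixon's criterion, where chance gives about 1 in 20 groups. Of these, 12 were in the 12-hour group and 3 in the 6-hour group. Replicate 1 of the 12-hour group was the distant array for Bcl3 at 6.51 (the others 7.30 to 7.42), Cdt1 at 7.79 (6.08 to 6.36), Hsd3b5 at 6.47 (3.32 to 3.82), Il1r1 at 8.09 (8.96 to 9.14) and Tfrc at 9.61 (9.87 to 9.90). Replicate 4 of that group was distant for Ier2 at 7.14 (7.33 to 7.37), Mki67 at 3.40 (3.12 in each of the others), Odc1 at 10.04 (10.45 to 10.49) and Tubb4b at 9.29 (9.69 to 9.77). Replicate 3 was distant for Nop2 at 8.06 (7.37 to 7.48) and Uck2 at 7.38 (6.51 to 6.63), and replicate 2 for Npm1 at 10.38 (10.25 to 10.27). In the 6-hour group replicate 4 was distant for Aox3 at 10.84 (10.41 to 10.47), replicate 3 for Kpna3 at 7.02 (7.27 to 7.28) and replicate 1 for Met at 7.53 (7.87 to 7.92). Except for Hsd3b5 and Mki67, every one of these arrays still lay on its own group's side of the other group. The cause of these distances was not tested.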

How the results depend on the processing

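Among the 158 named genes 0 called changes were reversed in the 14 alternatives, the 8 fits without 1 array and the added fit. Leaving out dim genes removed Ccne2, Il6 and Mki67 and left 155. The 52-array fit, replicate block, trended and robust prior, dim filter and stricter thresholds keep the same change, so no sign could reverse there. With every probe set, each gene was read from its set with the lowest p. Another set called the other way did not count there. The fit of all 52 arrays gave 1706 called genes (1345 higher, 361 lower) and 101 called list members, against 5168 (3450 and 1718) and 427. Every probe set tested on its own gave 8149 (5409 and 2740). Median centring gave 2722 higher and 3180 lower. An adjusted p under 0.01 gave 3184 (2334 and 850) with 270 list members, and a change of at least 2-fold 701 (503 and 198) with 97. The poly-A covariate gave 2113 (1557 and 556) with 188 list members, and the Gapdh covariate, whose values do not overlap between the groups, 1107 (788 and 319) with 101. Without single arrays the counts ran from 3921 (6-hour replicate 3) to 5057 (12-hour replicate 4) in all, 2718 to 3318 higher, 1203 to 1739 lower, and 340 to 419 list members. Without replicate 1 of both groups, added after seeing the data, 4210 genes (2946 and 1264) and 335 list members were called. Of the named genes' calls 56 ended in the fit of all 52 arrays, 60 with the Gapdh covariate, 34 with the poly-A covariate, 40 at 2-fold and 11 at 0.01, and at most 9 in each other setting. The cause was not tested, apart from the smaller number of arrays and the stricter thresholds themselves.

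No pairing of the samples by replicate number was seen, which does not exclude one. Same-numbered arrays deviated from their group means with correlations of -0.21 to -0.09, and 0 of the 4 12-hour arrays correlated best with the 6-hour array of the same number. With the replicate block 4152 genes (2911 and 1241) and 359 list members were called, and 7 named calls ended, those of Cdk1, Cyp2a12, Dbp, E2f1, Hnf4a, Il6 and Met. Probe sets near background, under 3.98, limit what can be said of Il6, Ccne2 and Mki67.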
